A study of Mus musculus with 18 samples.

Results

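The genes described here are 10 transcription factors and repressors of the circadian clock and its output in lung: the period genes Per1, Per2 and Per3, the nuclear receptors Nr1d1 and Nr1d2, the PAR bZIP factors Dbp, Tef and Hlf, the repressor Bhlhe40 and the activator Npas2. They were taken by symbol from the probe sets annotated to exactly 1 gene, and for each gene the probe set used was the one whose mean across the 18 arrays was highest. All 10 were on the array and all 10 passed the filter on low values, among 13434 genes tested of 18193 genes with such a probe set. Their 23 probe sets agreed in direction: the 13 not used correlated with the one used at Pearson's r between 0.606 (Per3) and 0.990 (Dbp) over the 18 arrays. Per1, Nr1d1 and Bhlhe40 had 1 probe set each.

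RNA was taken from the lung (right lobe) of 18 B6C3F1 mice, females 18 weeks old after 13 weeks of dosing, with 1 mouse per Affymetrix Mouse 430_2 array and 3 mice in each of 6 groups. Through the feed, 7 days a week, mice received 1,5-naphthalenediamine (NDA, 2000 ppm), N-(1-naphthyl)ethylenediamine dihydrochloride (NEDD, 2000 ppm) or pentachloronitrobenzene (PCNB, 8187 ppm), or plain chow as the feed control. By gavage, 5 days a week at 5 ml/kg, mice received 2,3-benzofuran (benzofuran, 240 mg/kg) or the corn oil vehicle alone. The study lists NDA and benzofuran as positive and NEDD and PCNB as negative lung carcinogens, and asks what separates them in lung after this exposure. Each mouse is named by its group and its animal number. The hour at which each mouse was killed is not given in the sources used here. Its part in every difference below was not tested, and between groups of 3 mice it cannot be told apart from the treatment.

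The mammalian clock is a loop of transcription and repression that runs in nearly every cell. The activators Arntl (BMAL1) and Clock, or Npas2 in its place, bind E-boxes and switch on the period and cryptochrome genes, Nr1d1, Nr1d2, Dbp, Tef, Hlf and Bhlhe40. The period and cryptochrome proteins then shut off the activators, and the Nr1d proteins (REV-ERB alpha and beta) repress Arntl, Npas2 and Nfil3 through ROR elements. Dbp, Tef and Hlf drive genes with D-boxes, where Nfil3 represses. In a tissue followed around the clock, Arntl and Npas2 are therefore high when Dbp and Nr1d1 are low. Lung keeps such a rhythm, and its club cells are a well-known site of it.

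The letters these factors read were looked for near the start sites of the members, as background to genes that move together. RefSeq promoters (GRCm38.p6, 250 bases before to 50 after each start) were given for 8 of the 10 members, in 10 entries; Per2 and Bhlhe40 had none. The E-box CACGTG lay in the promoters of Per1 and Tef, at 166 bases upstream for Per1 and at 127 and 138 bases upstream of the starts of Tef. It occurs in 7.15% of 32851 promoters of the same length. A pair of D-boxes (TTANGTAA) lay 205 and 158 bases upstream of Per3, a motif in 2.32% of promoters, and the cyclic AMP response element TGACGTCA lay 9 bases upstream of Hlf, a motif in 1.79%. No match stood in these windows of Nr1d1, Nr1d2, Dbp or Npas2. The ROR element core (TAGGTCA or TGGGTCA, 6.45% of promoters) was found in none of the members' entries. Outside the members it lay 12 bases upstream of Nfil3 and after the start in an entry of Arntl. An E-box lay 60 bases upstream of Cry1. Both strands were searched, and no match overlapped a match of another motif. The stretches around the matches of the members and of Nfil3 follow, 5′ to 3′ on the gene's strand, with the motif in capitals. A match is a description of the letters, not of a bound site.
Per1, E-box, chr11:69098753-69098818, plus strand: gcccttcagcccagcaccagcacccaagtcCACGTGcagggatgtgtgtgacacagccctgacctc
Tef, E-box of the first entry, chr15:81802516-81802581, plus strand: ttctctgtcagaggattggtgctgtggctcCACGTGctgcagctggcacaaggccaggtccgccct
Tef, E-box of the second entry, chr15:81811246-81811311, plus strand: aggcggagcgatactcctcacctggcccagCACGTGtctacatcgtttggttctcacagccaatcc
Per3, both D-boxes, chr4:151044786-151044900, minus strand: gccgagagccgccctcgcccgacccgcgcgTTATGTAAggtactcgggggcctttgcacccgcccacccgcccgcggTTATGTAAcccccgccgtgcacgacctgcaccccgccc
Hlf, cyclic AMP response element, chr11:90390918-90390956, minus strand: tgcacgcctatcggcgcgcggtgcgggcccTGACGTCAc
Nfil3, ROR element core read on the other strand, chr13:52981040-52981081, minus strand: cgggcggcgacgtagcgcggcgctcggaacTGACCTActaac

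The arrays were lung by their markers. Sftpc of alveolar type 2 cells lay between 14.51 and 14.63 and Scgb1a1 of club cells between 14.30 and 14.51 on the log2 scale. Heart muscle genes were also present, with Myl7 between 9.79 and 11.85, while the liver gene Alb stayed between 4.58 and 5.38. Array medians lay between 5.678 and 5.803. The array of benzofuran 10 stood apart: its score on principal component 1 was 46.6, against -11.8 to 7.81 for the rest, and it had the largest excess of the 3′ over the 5′ actin probe set, 0.906. The benzofuran and route comparisons below are also given without it.

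Dbp, the PAR bZIP activator that is a direct clock output, had the widest range of the members. Its log2 level was 7.10, 7.87 and 8.49 in feed controls 27, 28 and 29, 5.82, 7.02 and 6.62 in NDA 2, 4 and 5, and 8.42, 9.18 and 9.29 in NEDD 12, 14 and 15. It was 5.80, 6.28 and 8.80 in PCNB 16, 18 and 20, 7.47, 9.76 and 9.46 in corn oil controls 22, 24 and 25, and 7.14, 6.87 and 8.42 in benzofuran 6, 8 and 10. Mice of 1 group differed as much as groups did: PCNB 20 was 7.99-fold above PCNB 16, and corn oil control 24 was 4.91-fold above corn oil control 22. The range over 18 arrays, 3.97, was the 14th widest of all genes tested.

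Tef, the PAR bZIP factor closest to Dbp in its pattern, varied less. It stood at 9.43, 9.72 and 10.03 in the feed controls, 9.12, 9.60 and 9.40 with NDA, 10.25, 10.10 and 10.34 with NEDD and 9.14, 9.48 and 10.16 with PCNB. In the gavage groups it was 9.66, 10.34 and 10.20 with corn oil and 9.38, 9.72 and 9.49 with benzofuran. The 3 NEDD arrays lay above the 3 feed controls without overlap, and PCNB 20 and corn oil controls 24 and 25 reached the NEDD level while their group mates did not.

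Hlf, the third PAR bZIP factor, had 6.13, 6.36 and 6.76 in the feed controls, 6.27, 6.03 and 6.38 with NDA, 6.86, 7.04 and 7.29 with NEDD and 6.21, 6.45 and 6.93 with PCNB. With corn oil it was 6.50, 7.60 and 7.37, and with benzofuran 6.37, 6.41 and 6.18. All 3 benzofuran arrays lay below all 3 corn oil controls, and all 3 NEDD arrays above the feed controls. NDA and benzofuran, the positive chemicals, had the lowest group means, 6.23 ± 0.18 and 6.32 ± 0.12 (SD, n = 3).

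**Figure D1:**
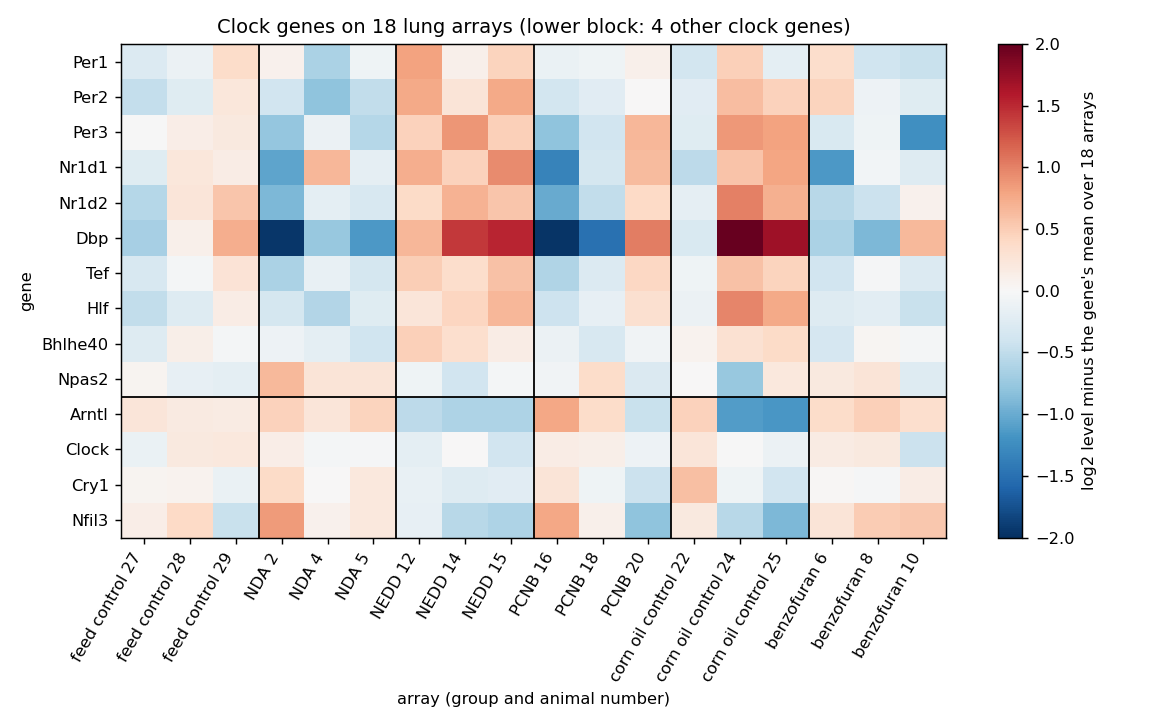
Log2 level of each member (upper block) and of Arntl, Clock, Cry1 and Nfil3 (lower block), minus the gene's mean over 18 arrays, with 1 column per mouse and vertical lines between groups. The NEDD arrays, PCNB 20 and corn oil controls 24 and 25 are red over most members and blue for Arntl, while NDA 2 and PCNB 16 show the opposite.

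Nr1d1, which encodes REV-ERB alpha, ranged from 6.89 to 9.18. The feed controls had 7.98, 8.46 and 8.38, the NDA mice 7.17, 8.89 and 8.04, the NEDD mice 8.95, 8.70 and 9.18 and the PCNB mice 6.89, 7.88 and 8.86. Corn oil controls had 7.70, 8.80 and 9.01 and benzofuran mice 7.08, 8.17 and 7.97. The widest gap within a group was 3.92-fold, between PCNB 16 and PCNB 20, and the mice of NDA also spread 3.29-fold, with NDA 4 near the NEDD level. Only the NEDD mice stood clear of the feed controls.

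Nr1d2, which encodes REV-ERB beta, followed the same arrays. Its level was 9.37, 10.20 and 10.51 in feed controls, 9.04, 9.75 and 9.63 with NDA, 10.33, 10.64 and 10.51 with NEDD and 8.94, 9.46 and 10.35 with PCNB. Gavage gave 9.77, 10.96 and 10.66 with corn oil and 9.40, 9.53 and 10.04 with benzofuran. No treated group was separate from its control, because feed control 29, at 10.51, was level with the NEDD mice and corn oil control 22, at 9.77, lay inside the benzofuran range.

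Per1, the period gene that also answers quickly to hormones and light, had the weakest correlation with Dbp among the members (r = 0.402 over 18 arrays). It was 7.84, 7.99 and 8.47 in the feed controls, 8.21, 7.49 and 8.03 with NDA, 8.92, 8.21 and 8.56 with NEDD and 7.99, 8.03 and 8.22 with PCNB. In the gavage groups it was 7.75, 8.60 and 7.93 with corn oil and 8.47, 7.72 and 7.66 with benzofuran. All groups overlapped their controls, and the PCNB mice differed from each other by only 1.18-fold although their Dbp spread 7.99-fold.

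Per2, a core repressor of the loop, was 6.46, 6.70 and 7.15 in the feed controls, 6.55, 6.13 and 6.44 with NDA, 7.68, 7.19 and 7.69 with NEDD and 6.56, 6.70 and 6.94 with PCNB. It was 6.71, 7.56 and 7.40 with corn oil and 7.38, 6.83 and 6.69 with benzofuran. The NEDD mice lay above the feed controls by a narrow margin, 7.19 in NEDD 14 against 7.15 in feed control 29.

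Per3, the period gene with the 2 D-boxes printed above, was 7.20, 7.34 and 7.39 in the feed controls, 6.43, 7.09 and 6.63 with NDA, 7.67, 8.09 and 7.68 with NEDD and 6.40, 6.82 and 7.87 with PCNB. With corn oil it was 6.97, 8.08 and 8.01, and with benzofuran 6.91, 7.13 and 5.98. The feed controls were tight, 1.14-fold from lowest to highest, with all NDA mice below and all NEDD mice above them. Benzofuran 10 had the lowest Per3 of all arrays while its Dbp, 8.42, was the highest of its group.

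Bhlhe40, the bHLH repressor DEC1 that competes at E-boxes, had the narrowest range of the members, 0.863. The levels were 8.53, 8.91 and 8.74 in feed controls, 8.69, 8.60 and 8.40 with NDA, 9.26, 9.13 and 8.94 with NEDD and 8.67, 8.47 and 8.71 with PCNB. They were 8.86, 9.09 and 9.17 with corn oil and 8.46, 8.83 and 8.76 with benzofuran. NEDD lay above feed control and benzofuran below corn oil control without overlap, on differences of less than 0.4.

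Npas2, the activator among the members, had its highest mean with NDA. Its levels were 5.31, 5.09 and 5.07 in feed controls, 5.91, 5.52 and 5.51 with NDA, 5.18, 4.87 and 5.22 with NEDD and 5.19, 5.62 and 4.97 with PCNB. They were 5.26, 4.49 and 5.47 with corn oil and 5.45, 5.52 and 5.00 with benzofuran. The NDA mice lay above all feed controls. Npas2 was near the low end of the array, above its 40th percentile on 15 of the 18 arrays.

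**Figure D2:**
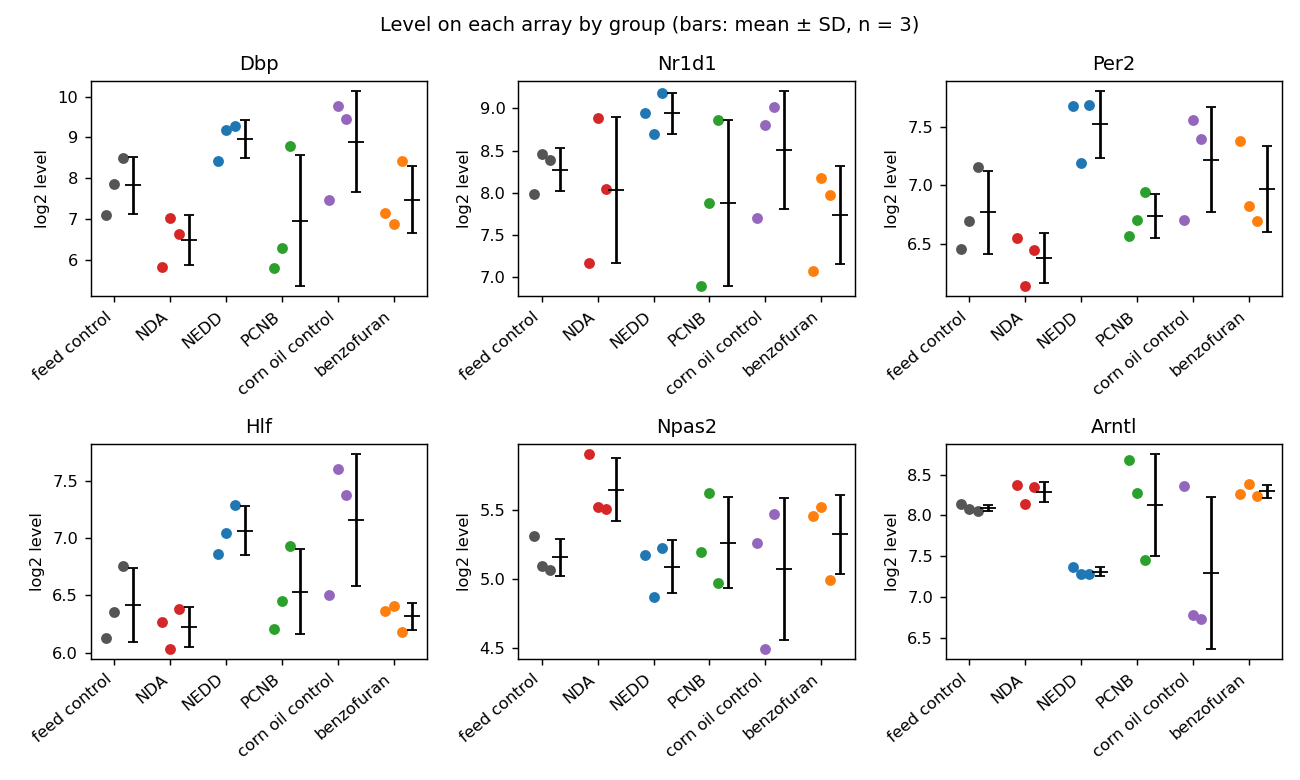
Log2 level of Dbp, Nr1d1, Per2, Hlf, Npas2 and Arntl on each of 3 arrays per group (points), with the group mean ± SD (bars, n = 3). PCNB and corn oil control hold the widest spreads of Dbp and Arntl, with corn oil control 22 apart from its group mates, while the 3 NEDD mice sit together.

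Group means took a like order for most members. NEDD had the highest mean for 8 of the 10 (all but Hlf and Npas2), and NDA the lowest for 7 (Per1, Per2, Nr1d2, Dbp, Tef, Hlf and Bhlhe40). For Dbp the order was NEDD (8.97 ± 0.47), corn oil control (8.90 ± 1.25), feed control (7.82 ± 0.70), benzofuran (7.48 ± 0.83), PCNB (6.96 ± 1.61) and NDA (6.49 ± 0.61), as mean ± SD of 3 mice. No neighbours in that order were separate. Among all members and neighbouring groups, the arrays did not overlap in 1 case, Per2 in PCNB above NDA.

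The spread between mice of a group was itself large for these genes. Pooled over the 6 groups, the SD was 0.992 for Dbp, 0.666 for Nr1d1, 0.504 for Nr1d2 and 0.502 for Per3. These stood at the 99.96th, 99.78th, 99.22nd and 99.2nd percentile of the 13434 genes tested. Bhlhe40, with 0.167, was near the middle, at the 52.74th percentile. The median SD of the members was 0.348 against 0.163 for all genes, and their median range over 18 arrays was 1.563 against 0.676.

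**Figure D3:**
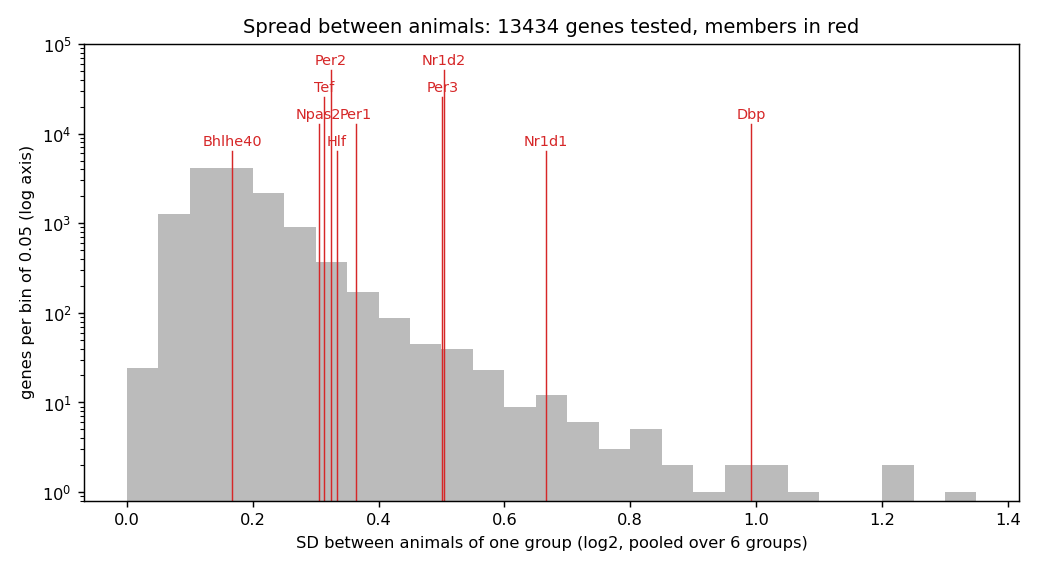
Number of genes tested (log axis) by the SD between animals of one group, in bins of 0.05 on the log2 scale, with each member's SD as a red line. Dbp, Nr1d1, Nr1d2 and Per3 lie in the right tail and Bhlhe40 in the bulk.

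The members were then set against Arntl, the activator whose phase is opposite in a running clock. Arntl, which is no member, was 8.14, 8.09 and 8.06 in the feed controls, 8.37, 8.14 and 8.35 with NDA, 7.37, 7.29 and 7.28 with NEDD and 8.68, 8.27 and 7.45 with PCNB. With corn oil it was 8.37, 6.78 and 6.73, and with benzofuran 8.26, 8.38 and 8.23. The values fell into separate ranges, 6.73 to 7.45 on 6 arrays and 8.06 to 8.68 on the other 12, so no pooled correlation with Dbp is given. The 6 low arrays were the 3 of NEDD, PCNB 20 and corn oil controls 24 and 25, and these were also among the 7 arrays with the most Dbp.

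Within the 12 high arrays lower Arntl went with higher Dbp, with r = -0.697 (permutation p = 0.0109) and rho = -0.741 (p = 0.00801). Without the 2 arrays farthest from the median r was -0.689. Over the 6 low arrays r was -0.804 (exact permutation p = 0.0708) and rho -0.886 (exact p = 0.0333), with r = -0.823 without such a pair. The ranges were split at the widest gap in these same Arntl values, and the permutations ran across groups. The p-values of both ranges therefore also hold differences between groups and do not measure the spread between mice of 1 treatment. After the mean of each group was subtracted, r over all 18 arrays was -0.835 (exact permutation within groups, p = 0.000129, adjusted p = 0.000836 over 13 relations). With PCNB 20 and corn oil control 22 dropped after the subtraction, r was -0.744. Arntl ranged over 1.63 within the corn oil controls and 1.23 within PCNB, but over only 0.0771 to 0.225 within each other group. The same opposition thus stood among mice of 1 treatment, most widely in the corn oil controls, where 22 had Dbp 7.47 with Arntl 8.37 and 24 had 9.76 with 6.78.

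**Figure D4:**
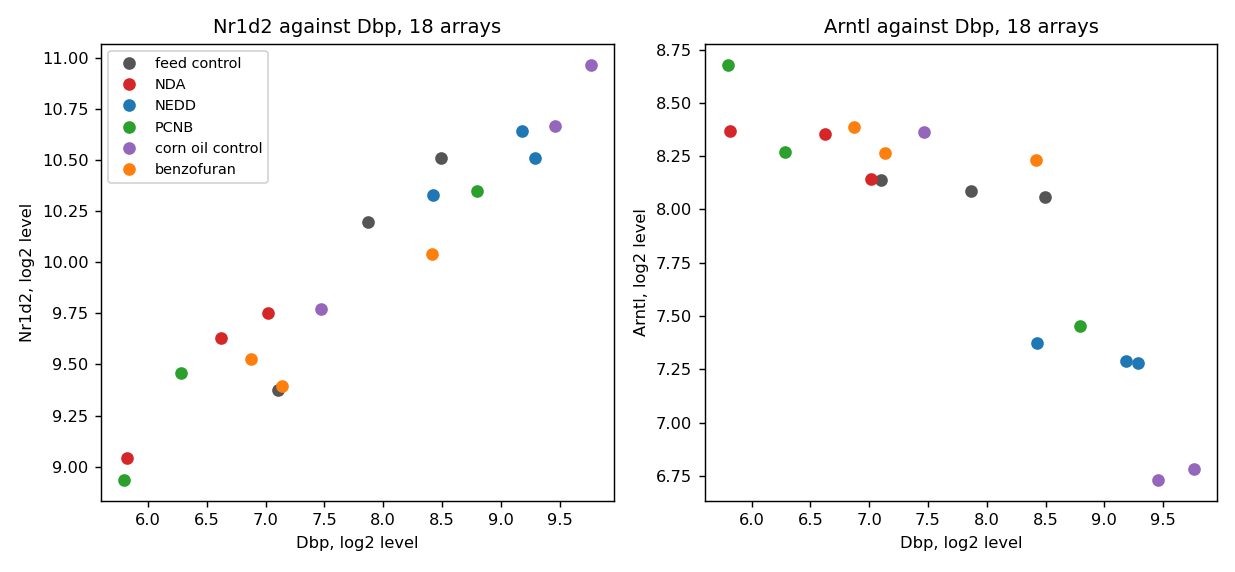
Log2 level of Nr1d2 (left) and of Arntl (right) against Dbp, 1 point per array, coloured by group. The 3 mice of a group stand in the same order for Nr1d2 and Dbp in 4 of 6 groups, all but NEDD and benzofuran, and Arntl lies in a low range (6.73 to 7.45, 6 arrays) and a high range (8.06 to 8.68, 12 arrays).

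Of the other members, 8 had a positive correlation with Dbp and Npas2 a negative one. Over 18 arrays r with Dbp was 0.964 for Nr1d2 (rho 0.942; permutation p = 1e-05, the smallest that 100000 resamples can give, adjusted p = 4.33e-05 over 13 relations). Tef had r = 0.909 (rho 0.870) and Hlf 0.830 (rho 0.756), with adjusted p = 4.33e-05 and 6.5e-05. The others were Nr1d1 at 0.780, Per3 at 0.765, Per2 at 0.721 and Bhlhe40 at 0.719. Npas2 had r = -0.716 (rho -0.684, adjusted p = 0.000942). Per1 did not pass, with r = 0.402 (rho 0.441, permutation p = 0.0974). Of the 12 relations other than that with Arntl, 11 passed an adjusted p of 0.05, and 10 to 11 did with 1 array left out. Without the 2 arrays farthest from the median of Dbp (PCNB 16 and corn oil control 24), r stayed between 0.671 (Per2) and 0.949 (Nr1d2) for the 7 members with a positive relation that passed.

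The pooled values hold differences between groups as well as within them. With group means subtracted, 7 of 13 relations passed: Nr1d2 (r = 0.949), Tef (0.839), Nr1d1 (0.776), Hlf (0.734), Arntl (-0.835), Nfil3 (-0.822) and Cry1 (-0.763). Per3 (0.596, adjusted p = 0.135), Per2 (0.401), Bhlhe40 (0.297), Per1 (0.159), Npas2 (-0.604) and Clock (-0.528) did not pass in the exact permutation within groups. Only Nr1d2 and Arntl passed when PCNB 20 was left out, and the same was true without corn oil control 22. Both of these arrays were also dropped after the subtraction, so they still entered through the means of their groups. There r was 0.926 for Nr1d2, 0.716 for Tef, 0.657 for Nr1d1, 0.573 for Hlf and 0.293 for Per3. For Per3 the array that stands apart mattered: without benzofuran 10 its within-group r was 0.923 (adjusted p = 0.00418). The choice of probe set mattered too. With the mean of all probe sets of a gene, Npas2 (r = -0.922, adjusted p = 0.00153), Per3 (0.846, 0.00961) and Clock (-0.634, 0.0415) passed the same permutation test. Tef (0.696, adjusted p = 0.0604) then did not pass.

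Among the other genes of the loop Nfil3 and Cry1 lay with Arntl, and Cry2 with Dbp. Nfil3, the D-box repressor with the ROR element core printed above, was 6.64, 6.92 and 6.07 in feed controls, 7.37, 6.60 and 6.73 with NDA, 6.36, 5.96 and 5.89 with NEDD and 7.29, 6.62 and 5.71 with PCNB. It was 6.70, 5.95 and 5.61 with corn oil and 6.78, 7.02 and 7.05 with benzofuran, and its pooled r with Dbp was -0.837 (rho -0.789, adjusted p = 0.000104). Benzofuran mice lay above all corn oil controls. Cry1, a cryptochrome that peaks late in the cycle, had 7.08, 7.11 and 6.90 in feed controls, 7.42, 7.04 and 7.25 with NDA, 6.88, 6.77 and 6.81 with NEDD and 7.30, 6.95 and 6.61 with PCNB, and a pooled r of -0.656. With corn oil Cry1 was 7.63, 6.95 and 6.65, highest of all in corn oil control 22, and with benzofuran 7.06, 7.02 and 7.18. Clock, the constitutive partner of Arntl, ranged over 0.666 in all, with r = -0.479 and rho = -0.346. The adjusted permutation p for Clock was 0.048 for r and 0.16 for rho. With 1 array left out, that for r ran from 0.0256 to 0.12. Cry2, the other cryptochrome, lay between 7.19 and 8.17 and had r = 0.724.

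Each array can also be read by how many of the 9 members other than Npas2 lay above their own mean over 18 arrays. The count was 9 in each NEDD mouse and in corn oil control 24, and 8 in corn oil control 25, PCNB 20 and feed control 29. Feed control 28 had 5, and the other arrays had between 0 and 2. Feed controls 27 and 29 thus stood at 0 and 8, and corn oil controls 22 and 24 at 1 and 9, while both the NDA mice and the benzofuran mice kept to 2 or fewer. Feed control 29 reached 8 with an Arntl of 8.06, in the high range.

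Dbp was also set against technical measures. Its r was 0.183 with the actin 3′ to 5′ difference, 0.204 with the OD260/OD280 ratio of the RNA, -0.104 with the array median and -0.217 with the first principal component (permutation p between 0.421 and 0.721). The rank correlation with that component was -0.596 (permutation p = 0.0104, adjusted p = 0.0416 over 4 measures) and -0.0506 with group means subtracted (exact permutation p = 0.883). The OD260/OD280 ratio was 2.87 in PCNB 20 and 2.66 and 2.58 in NEDD 12 and 15, against 1.80 to 2.25 on the other 15 arrays, and within groups its r with Dbp was 0.332 (exact permutation p = 0.489).

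Differences between groups were tested with limma over all 13434 genes. NDA, NEDD and PCNB were each set against the same 3 feed controls, so their values are given side by side and not as separate support for each other. The standard errors and p-values rest on 1 spread per gene, pooled over the mice of all 6 groups and moderated across genes. They do not measure the spread of the compared groups alone. For Arntl the SD was 0.039 in feed controls and 0.052 with NEDD, against 0.929 in corn oil controls.

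With NEDD, the arylamine called negative, 9 of 10 members lay higher than in feed controls and none passed an adjusted p of 0.05, which 0.0223% of genes did. The difference was 0.75 ± 0.23 (log2, SE) for Per2 with adjusted p = 0.422, 0.65 ± 0.24 for Hlf with 0.487 and 1.14 ± 0.67 for Dbp with 0.577. At an unadjusted p of 0.05 the count was 4 (Per2, Tef, Hlf and Bhlhe40) against 9.44% of genes. The arrays of both groups did not overlap for 6 members (Per2, Per3, Nr1d1, Tef, Hlf and Bhlhe40), where 19.3% of genes did not. Arntl differed by -0.78 ± 0.32, with all NEDD mice below all feed controls. The median of the members was 0.50 against -0.02 for all genes tested.

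With NDA, the positive arylamine, 9 of 10 members lay lower than in feed controls, and 0 passed the adjusted threshold against 1.37% of genes. Dbp differed by -1.34 ± 0.67 with adjusted p = 0.526, and Per3 by -0.59 ± 0.35 with 0.613. Npas2 differed by 0.49 ± 0.22 and was the 1 member past an unadjusted p of 0.05, a bar that 10.3% of genes passed. Dbp and Per3 lay below, and Npas2 above, all feed controls, 3 members against 21.1% of genes without overlap. The members' median was -0.30, and that of all genes -0.02.

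With PCNB, the negative chemical given at 8187 ppm, no member passed the adjusted threshold (0.0149% of genes) or an unadjusted p of 0.05 (2.97% of genes), and none separated from the feed controls (8.54% of genes). Dbp differed by -0.86 ± 0.67, with PCNB 16 and 18 below all feed controls and PCNB 20 above them, and by -1.78 without PCNB 20 and -0.28 without PCNB 16. The median was -0.12 for the members and -0.02 for all genes.

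With benzofuran, the positive chemical given by gavage, 9 of 10 members lay lower than in corn oil controls. No member passed the adjusted threshold, as 1.73% of genes did. That share of all genes turned on single arrays: it was 0.499% without benzofuran 10, 7.85% without benzofuran 8, 0.275% when corn oil control 22 was left out and 0.841% when 24 was. Hlf came closest, at -0.84 ± 0.24 with adjusted p = 0.0734. It differed by -0.77 (adjusted p = 0.264) without benzofuran 10, and it passed without corn oil control 22 (-1.17, adjusted p = 0.0161). Per3 differed by -1.01 ± 0.35 with adjusted p = 0.127, and by -0.67 (adjusted p = 0.495) without benzofuran 10. Dbp differed by -1.42 ± 0.67 with adjusted p = 0.256, by -1.89 (adjusted p = 0.327) without benzofuran 10 and by -2.13 without corn oil control 22. At an unadjusted p of 0.05 there were 6 (Per3, Nr1d2, Dbp, Tef, Hlf and Bhlhe40) against 19.5% of genes. Without overlap there were 2, Hlf and Bhlhe40, against 17.4% of genes. The members' median was -0.65 against 0.05 for all genes, and -0.59 without benzofuran 10. Arntl differed by 1.00 ± 0.32 and Nfil3 by 0.86 ± 0.33, neither past the threshold. Without benzofuran 10 these were 1.03 and 0.81, and without corn oil control 22 Arntl passed, at 1.54 with adjusted p = 0.00239.

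**Figure D5:**
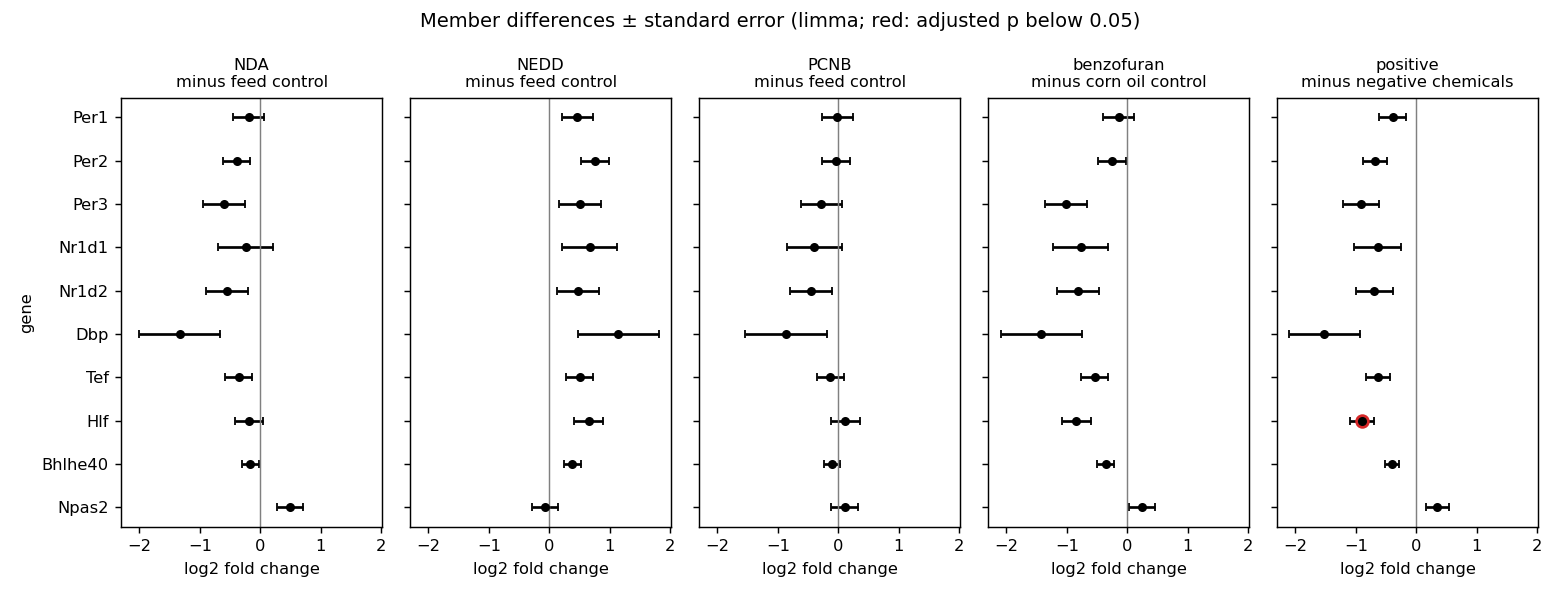
Log2 difference of each member with its standard error in the 4 chemical comparisons and in the contrast of positive with negative chemicals, from limma. Hlf in that contrast, in red, is the 1 value with an adjusted p below 0.05. Dbp has the largest difference and the widest error in all 5 panels.

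Between the controls, 8 of 10 members had higher means with corn oil than with plain feed. No member passed the adjusted threshold, nor did any other gene (0% of genes). Hlf was 0.74 ± 0.24 and Bhlhe40 0.31 ± 0.13 higher in corn oil than in feed controls, the 2 members past an unadjusted p of 0.05 against 2.02% of genes. Groups overlapped for every member, where 7.23% of genes did not overlap. Dbp differed by 1.07 ± 0.67, with corn oil controls 24 and 25 above all feed controls and 22 among them. Without 22 it was 1.79, and without 24 it was 0.64. Between the gavage and the feed groups as a whole 0 members passed the adjusted threshold (0.0521% of genes) and 0 an unadjusted p of 0.05 (8.78% of genes), and Dbp differed by 0.63 ± 0.41. The Dbp value was 0.39 without benzofuran 10, 0.98 without corn oil control 22 and 0.41 when control 24 was left out.

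The contrast of positive with negative chemicals takes the mean effect of NDA and benzofuran minus that of NEDD and PCNB, each against its own control. Hlf passed, at -0.90 ± 0.20 (log2, SE) with limma's adjusted p = 0.0187. It was the 1 member among 10, against 3.49% of genes in either direction and 0.335% in the lower direction. The call held without each of the 18 arrays in turn (adjusted p 0.00189 to 0.0454). It was lost when all probe sets of a gene were averaged (-0.89, adjusted p = 0.064) and with the OD260/OD280 ratio as covariate (-0.82, adjusted p = 0.0587). Without benzofuran 10 Hlf differed by -0.86 with adjusted p = 0.0355. Its group means were 6.42 in feed controls, 6.23 with NDA, 7.07 with NEDD and 6.53 with PCNB. They were 7.16 with corn oil and 6.32 with benzofuran. Since each effect is taken against its own control, the higher mean of the corn oil controls is part of the contrast. At an unadjusted p of 0.05 there were 7 (Per2, Per3, Nr1d2, Dbp, Tef, Hlf and Bhlhe40) against 18.8% of genes.

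The other members lay on the same side, Npas2 apart. Dbp differed by -1.52 ± 0.58 (adjusted p = 0.17), Per3 by -0.92 ± 0.30 (0.107), Per2 by -0.68 ± 0.20 (0.0703), and Tef by -0.63 ± 0.19 (0.0846). Npas2 was 0.35 ± 0.19 higher, Arntl 0.97 ± 0.28 higher (adjusted p = 0.0653) and Nfil3 0.85 ± 0.29 higher (0.121). The members' median was -0.66, that of all genes 0.03. Of 14 lung cell markers tested in the same contrast, 3 passed, against 3.49% of all genes. All were higher: Marco of alveolar macrophages (1.00 ± 0.14) and Foxj1 and Tekt1 of ciliated cells (0.73 ± 0.17 and 0.66 ± 0.13). The mean of the 14 markers, relative to each gene's own mean, lay between -0.13 and -0.10 in the NEDD mice and between -0.04 and 0.08 on the other arrays. The markers did not move alike with NEDD, where Marco had a mean of 6.41 against 7.58 over 18 arrays. Ager (14.10 against 13.98), Cdh5 (10.21 against 9.98), Hopx, Cyp2f2 and Pecam1 were higher with NEDD, and the other markers lower. The part of these markers in the result was not tested, and in whole tissue fewer cells of a type and less RNA per cell cannot be told apart.

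Asked whether a member differed among any of the 6 groups, limma's F test called 0 of 10 at the adjusted threshold, which 2.93% of genes passed. Unadjusted, 7 members passed 0.05 (Per2, Per3, Nr1d2, Dbp, Tef, Hlf and Bhlhe40) against 15.3% of genes. Per2 had adjusted p = 0.0588, Bhlhe40 0.0666, Hlf 0.0754 and Dbp 0.137. Dbp and Tef passed without PCNB 20, and Per2, Dbp and Hlf without corn oil control 22, where 2.29% and 2.66% of all genes passed. Per2 was the 1 member that passed without feed control 29, and likewise without benzofuran 6 (2.61% and 2.69% of all genes).

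Further clock genes were taken from a fixed list of 22, of which 18 were tested. None passed the adjusted threshold in any of the 8 comparisons, where 0% to 3.49% of all genes did. Unadjusted, the number of the 18 past 0.05 was 6 with benzofuran against 19.5% of all genes, 3 with NEDD against 9.44%, 2 with NDA against 10.3% and 0 with PCNB against 2.97%. In the contrast of positive with negative chemicals it was 6 against 18.8%, and in the F test 3 against 15.3%. The list medians in the 4 chemical comparisons, in that order, and in the contrast were -0.02, 0.12, -0.02, -0.01 and -0.11. Tspan4 and Wee1, both output genes, lay above all feed controls in every NEDD mouse, at 0.49 ± 0.20 and 0.39 ± 0.15 (limma's adjusted p = 0.494 and 0.494). Csnk1e also did, by a narrow margin (9.30 against 9.29), while Arntl and Cry1 lay below all feed controls. Arrays of the NEDD and feed control groups did not overlap for 19.3% of all genes. Wee1 encodes a kinase that holds cells before mitosis.

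Genes that hormones, handling and body temperature move were read beside the clock. Of 12 glucocorticoid-induced genes 1 passed in the F test, against 2.93% of all genes. It was Cdkn1a, which encodes the cell-cycle inhibitor p21 (adjusted p = 0.0138). Its levels were 9.63, 9.71 and 10.03 in feed controls, 10.54, 10.58 and 10.62 with NDA, 10.46, 9.62 and 10.40 with NEDD and 9.55, 9.91 and 9.60 with PCNB. With corn oil they were 9.61, 9.22 and 9.22, and with benzofuran 9.82, 10.29 and 9.71. NDA mice lay above all feed controls and benzofuran mice above all corn oil controls. In pairwise comparisons 0 of the 12 passed, where 0% to 1.73% of all genes did. All 12 had lower means in gavage than in feed groups (median -0.20, all genes 0.02), with 3 past an unadjusted p of 0.05, as were 8.78% of all genes. None of 10 immediate early genes and none of 8 genes of the body temperature list passed in any comparison or in the F test. Of all genes 0% to 3.49% passed there, so 0 calls in lists this short do not set them apart. At most 1 of either list passed an unadjusted p of 0.05 in any of them, against 2.02% to 19.5% of all genes. The list medians stayed between -0.06 and 0.09 for immediate early genes and between 0.03 and 0.25 for the body temperature list.

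Genes most like Dbp were ranked by Pearson's r over the 18 arrays among 12856 named genes, as a description, since these points share mice and groups. The highest were Nr1d2 (0.964), Tef (0.909), Tspan4 (0.879), Wee1 (0.875), Zfp346 (0.846), Hlf (0.830), Pfkfb3 (0.787), Itprip (0.782), Nr1d1 (0.780) and Prkag3 (0.777). Members thus held ranks 1, 2, 6 and 9, and Per3, Per2 and Bhlhe40 ranks 12, 22 and 23, while Per1 stood at 875. Pfkfb3 makes the activator of glycolysis fructose-2,6-bisphosphate, and Prkag3 is a subunit of the energy sensor AMPK. The lowest were Arntl (rank 1 from the bottom), Adm (-0.847), Nfil3 (-0.837), Spon2 (-0.791), Cul2 (-0.781), Dpy19l3 (-0.766), Dtx4 (-0.764), Skap2 (-0.757), Clmp (-0.732) and Npas2 (-0.716). Adm encodes the vasodilator peptide adrenomedullin.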

How the data were processed

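The authors deposited 45101 probe sets on 18 arrays, on a scale taken as log2 from its range of 2.48 to 14.78. How the signals were summarised and normalized, and the base of the logarithm, is not given in the sources used here; folds rest on base 2. The values received no further scaling, since array medians differed little. Gene symbols came from the platform annotation (34945 with 1 symbol, 932 with several, 9160 with none, 64 controls), and 34741 matched RefSeq genes of GRCm38.p6. The filter asked that a gene exceed the 40th percentile of an array on 3 or more arrays.

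One mean per group was fitted in limma (version 3.58.1, R 4.3.3) over the 18 arrays (12 residual and 5.525 prior degrees of freedom), two-sided, with Benjamini-Hochberg adjustment over genes. Correlations used two-sided permutation tests over 13 relations, with 100000 resamples pooled and all 46656 arrangements within groups, and Benjamini-Hochberg adjustment over the 13.

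The members and gene lists were chosen with earlier results of these data known, so no pattern here is independent support. The text names all members, Arntl, Clock, Cry1, Cry2, Nfil3, called genes of the lists, and the 10 genes most and least like Dbp. Marco, Foxj1, Tekt1, Tspan4, Wee1, Csnk1e, Ager, Hopx, Cyp2f2, Cdh5 and Pecam1 were named after their values were seen. On simulated data for NEDD against feed control the procedure found 59.6% of genes set to change 1.5-fold and 94% at 2-fold, and 3.71% of its calls were false. The genes set to change were drawn at random from all genes tested, each with its own SD. The median SD within groups was 0.163 for all genes and 0.348 for the members, so these shares do not apply to the members. The number of arrays limits the precision, and a low signal is told apart from background only by the filter.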

Additional observations from a re-analysis of the deposited data

Results flagged for a closer look

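Hlf differed between the positive and the negative chemicals by a test of the difference itself, the limma contrast of their effects against their own controls. The difference was -0.898 on the log2 scale (adjusted p = 0.0187, over 13434 genes). Hlf lay below all corn oil controls in 3 of 3 benzofuran mice and above all feed controls in 3 of 3 NEDD mice, while NDA and PCNB mice overlapped the feed controls. The benzofuran mean was 6.32, against 7.16 in corn oil controls and 6.42 in feed controls. The hour of sampling was not tested.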

How the results depend on the processing

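Counts of members past an adjusted p of 0.05 were 0 in the NDA, PCNB, corn oil and route comparisons under every alternative run. Array weights, which gave benzofuran 10 a weight of 0.121, raised the calls over all genes as well. With them the count became 1 for NEDD (Per2), where 3.88% of all genes passed against 0.0223% unweighted, and 1 for benzofuran (Bhlhe40), with 8.55% against 1.73%. It became 4 for positive minus negative chemicals (Per3, Tef, Hlf and Bhlhe40), with 13.9% of all genes against 3.49%, and 7 in the F test, with 23.6% against 2.93%. In the contrast of positive with negative chemicals it was 2 after quantile normalization (Hlf and Bhlhe40), 2 with the mean of all probe sets (Per3 and Npas2, not Hlf) and 0 with the OD260/OD280 covariate, where 2.96%, 3.16% and 2.29% of all genes passed. In the F test it was 2 with the mean of all probe sets, 2 with trend and robust fitting and 3 with the actin covariate, beside 2.81%, 3.22% and 6.19% of all genes. Leaving out 1 array gave 0 to 0 for NEDD, 0 to 1 for benzofuran (1 without corn oil control 22, with 0.275% of all genes), 1 to 4 for positive minus negative chemicals (4 without corn oil control 22, with 2.45%) and 0 to 3 in the F test (3 without corn oil control 22, with 2.66%). Over all genes 120 to 311 passed for NDA with 1 array left out, against 184, with the ends without feed control 29 and benzofuran 10. For benzofuran 37 to 1054 passed, against 233, with the ends without corn oil control 22 and benzofuran 8. For positive minus negative chemicals 300 to 868 passed, against 469, with the ends without feed control 28 and benzofuran 8, and in the F test 239 (without NDA 5) to 524 (without benzofuran 8), against 393. Of 13 relations with Dbp within groups 2 to 8 passed with 1 array left out, against 7, and Per1's within-group r ran from -0.0112, its sign turned, without corn oil control 22 to 0.279 without benzofuran 10. The count of these relations was 6 with array medians subtracted and 9 with the mean of all probe sets. The cause of these changes was not tested. The medians of the members kept their sign in all comparisons except PCNB, where leaving out 1 array gave -0.29 to 0.05. No paired analysis was possible because no animal number occurs in more than 1 group.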

Other observations

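Among mice of the same group, some heat-induced chaperone genes ran against Dbp and others did not. With group means subtracted, the genes with the lowest Pearson's r with Dbp over 18 arrays were Hspa1a (-0.863), Adm (-0.855), Uspl1 (-0.848), Bahd1 (-0.847), Arntl (-0.835), Dnajb1 (-0.834), Arhgef7 (-0.834), Shroom4 (-0.834), Hexim1 (-0.833) and Banp (-0.830), of 12856 ranked. Hspa1a encodes an inducible HSP70 chaperone and Dnajb1 its HSP40 partner. Of the 7 heat-induced genes of the body temperature list, Hspa1b (-0.822), whose sequence is nearly that of Hspa1a, also had a low r within groups. Hsph1 (-0.305), Hspa8 (-0.173) and Hsp90aa1 (0.133) had weak ones, and Hspb1 (0.596) ran with Dbp. Hspa1a was 8.92, 7.70 and 7.11 in feed controls 27, 28 and 29, 9.59, 7.36 and 7.07 in NDA 2, 4 and 5, and 9.61, 8.04 and 6.85 in NEDD 12, 14 and 15. It was 8.98, 8.46 and 6.63 in PCNB 16, 18 and 20, 9.46, 7.31 and 6.69 in corn oil controls 22, 24 and 25, and 8.98, 9.70 and 8.41 in benzofuran 6, 8 and 10. In 6 of 6 groups the mouse with the lowest Dbp had the highest Hspa1a, and in 4 of 6 the mouse with the highest Dbp had the lowest. In every group but benzofuran, the mouse with the lowest Dbp and the highest Hspa1a also had the lowest animal number. The part of animal order was not tested. These values are a description, chosen after they were seen.

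The genes most like Dbp with group means subtracted were Nr1d2 (0.949), Slc1a5 (0.921), Tspan4 (0.887), Tpra1 (0.886), Plcd1 (0.865), Zwint (0.852), Tmem82 (0.850), Myb (0.849), Stard5 (0.847) and Coq8a (0.843). Slc1a5 is a glutamine transporter and Myb a transcription factor of blood cell precursors. Of these 10, Nr1d2 and Tspan4 were also among the 10 most like Dbp without that subtraction.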
